A study of Arabidopsis thaliana with 24 samples.

Results

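Expansins, xyloglucan endotransglucosylase/hydrolases (XTH) and trichome birefringence-like (TBL) proteins act on the polysaccharides of the plant cell wall. The 49 genes described here are those whose symbol is XTH, EXPA, EXPB, EXLA, EXLB or TBL followed by a digit and that a probe set naming 1 gene measured. They comprise 9 of the 30 XTH genes in the reference gene table, 18 expansin genes and 22 of the 41 TBL genes. The expansins are 10 of 24 EXPA genes, 4 of 6 EXPB genes, 3 of 3 EXLA genes and 1 of 1 EXLB gene. Together the 49 are part of 105 genes of these families, and of 13327 genes named by at least 1 probe set. Each member had 1 probe set, and 2 probe sets naming several genes of the families were left out.

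Root RNA of Arabidopsis thaliana was measured on 24 Affymetrix ATH1 arrays, 3 biological replicates for each of 8 groups. The groups were 4 genotypes at 2 times: the reference line (Col-0), lines mutant in 1 gene (nlp6, nlp7) and a line mutant in both (nlp6nlp7), each sampled at 0 min and, with 25 mM KNO3 added at pH 5.5, 35 min later. All groups, Col-0 included, had grown for 9 days with 12.5 mM ammonium succinate as nitrogen source, in continuous light with shaking, and about 200 seedlings from 3 boxes made up a replicate. The mutated genes encode NIN-like transcription factors of the nitrate response, and the labels do not give which alleles the mutants carry. No group received potassium without nitrate, so nitrate, potassium, handling and elapsed time cannot be told apart in a response. In whole roots, fewer cells of a type and less RNA per cell cannot be told apart either.

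Values are probe set intensities on a linear scale, which the authors had scaled so that each array's mean, trimmed by 2% at each end, lay between 499.9 and 500.3. Array medians lay between 163 and 196. No probe set is named NLP6 or NLP7. Among unnamed probe sets, one that followed the nlp6 label lay at 1 to 53 on the 12 arrays of the lines with the nlp6 mutation against 257 to 471 on the others, and one that followed the nlp7 label at 8 to 38 against 257 to 622. They were picked out for these values, which is therefore no independent check of the labels. The root marker PYK10, a root beta-glucosidase, lay at 18459 to 27050 on all arrays. Of 4 shoot markers, PRK and SBPASE did not exceed 71, LHCB4.1 lay at 54 to 242 and RCA, rubisco activase, at 201 to 400, and none of the 4 passed the threshold in any of the 13 comparisons. The 2 arrays of nlp7 replicate 1 deviated from their group means together (r = 0.469 across probe sets), so results for nlp7 are also given without them where they change.

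Expansins loosen the wall at the acidic pH of growing tissue without cutting its polymers. XTH enzymes cut xyloglucan, the hemicellulose that binds cellulose, and join the cut end to another xyloglucan chain or to water. TBL proteins include the Golgi enzymes that put acetyl groups on xylan, mannan, xyloglucan and pectin. In roots, expansins and XTH enzymes are known for their part in cell elongation and in the outgrowth of root hairs.

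Measured signals spanned a wide range, and since each probe set has its own sensitivity they do not rank genes by transcript level. Of the 49 members, 26 lay above the array median on all 24 arrays and 14 below it on all 24. The brightest and dimmest probe sets, as means over 24 arrays, were XTH18 with 2631 and XTH29 with 24.2 among XTH genes, and EXPA4 with 2522 and EXPA21 with 5.21 among EXPA genes. For EXPB they were EXPB3 with 1358 and EXPB5 with 43.9, for EXLA they were EXLA1 with 1416 and EXLA2 with 45.5, and for TBL they were TBL38 with 1868 and TBL43 with 7.29. The lowest deposited value, 1, occurred on some array for 3 members.

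In Col-0 each of the 3 families had genes that rose and genes that fell. Between 0 and 35 min in Col-0, 5 of the 49 members rose and 7 fell (24.5% of the members, against 10.2% of all 22714 probe sets, 4.65% higher and 5.5% lower). The risers were XTH18, XTH20, EXLA1, EXLA3 and TBL16, and the fallers were XTH16, XTH19, XTH33, EXPA15, EXPA18, EXPB1 and TBL38. By family these were 5 of 9 XTH genes, 5 of 18 expansins and 2 of 22 TBL genes, of which the TBL share (9.09%) is near that of all probe sets. The median change was -0.14 for XTH, -0.06 for expansins and 0.08 for TBL on the log2 scale, against -0.04 over all probe sets, and the sign of medians this close to 0 depended on the scaling for expansins. In nlp6, 6 members rose and 7 fell (26.5%, background 10.3%, 4.13% higher and 6.15% lower). In nlp7, 3 rose and 5 fell (16.3%, background 5.12%, 2.51% higher and 2.61% lower), and in nlp6nlp7, 3 rose and 4 fell (14.3%, background 5.41%, 2.41% higher and 3% lower). A call means a limma adjusted p under 0.05. Log2 changes were taken after adding 26 to each intensity, and this addition understates the change of dim genes. A value after ± is the standard error of the change. The heat map of all members shows the 8 group means side by side.

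**Figure D1:**
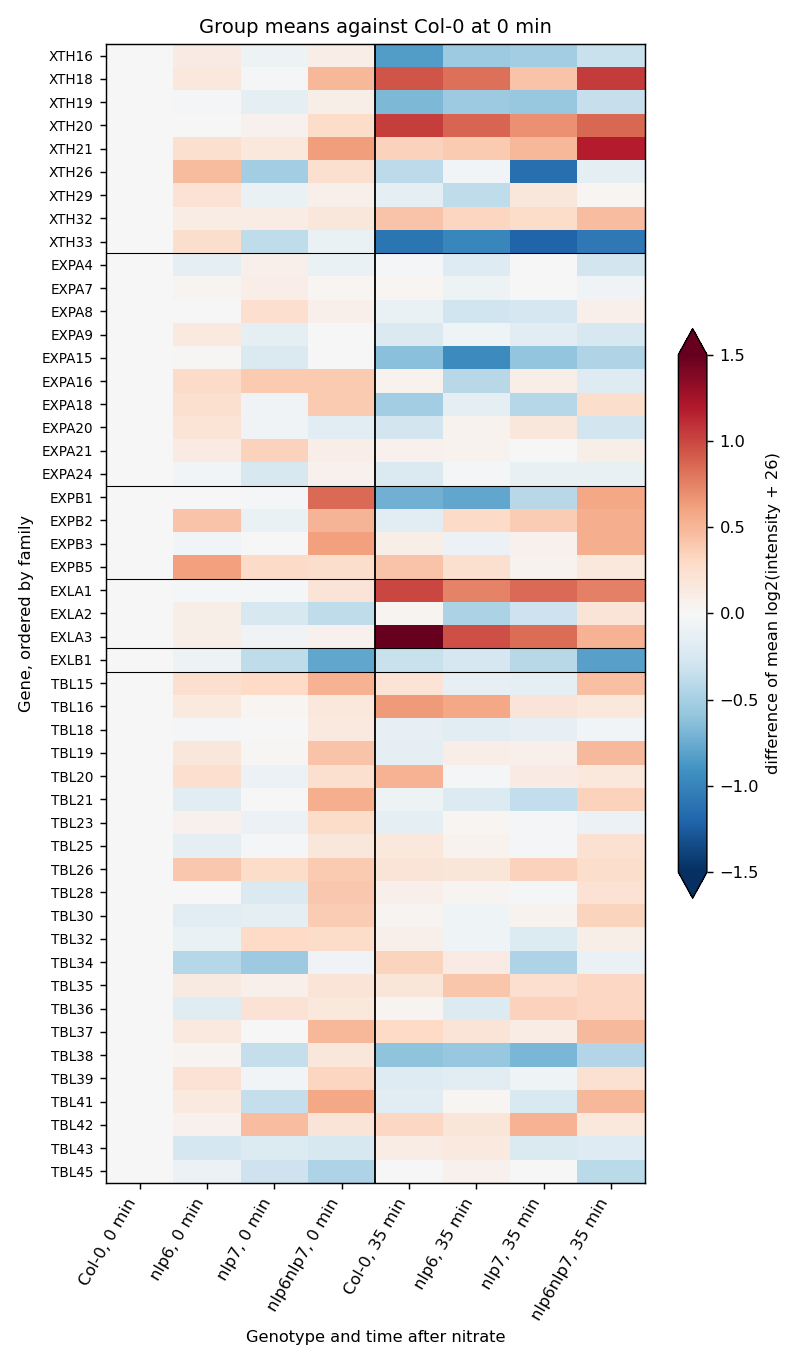
Heat map of the 49 members (rows, by family) in the 8 groups of genotype and time (columns). Colour is the group mean of log2(intensity + 26), n = 3 arrays, minus the mean of Col-0 at 0 min, with the scale ending at 1.5, which EXLA3 in Col-0 at 35 min (1.72) exceeds; EXLA1, EXLA3, XTH18 and XTH20 are higher at 35 min, XTH33 and XTH16 are lower, and EXPB1 is higher in nlp6nlp7 at both times.

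XTH18 (AT4G30280) and XTH19 (AT4G30290), which belong to a group of closely related XTH genes expressed in roots, are neighbours in the reference gene order with 0 protein-coding genes between them. They moved in opposite directions. At 0 min the intensities of XTH18 were 1514, 1867 and 2031 in Col-0, 1961, 1943 and 2108 in nlp6, 1567, 2184 and 1566 in nlp7 and 2624, 2701 and 2317 in nlp6nlp7. At 35 min they were 3163, 3985 and 3332 in Col-0, 3777, 2767 and 3088 in nlp6, 2753, 2276 and 2279 in nlp7 and 3058, 4419 and 3864 in nlp6nlp7. In every genotype the 3 arrays at 35 min lay above the 3 at 0 min, and in nlp7 the highest array at 0 min, 2184, nearly met the lowest at 35 min, 2276. XTH18 rose in Col-0 (1.93-fold, log2 change 0.95 ± 0.16, adjusted p = 0.000257), in nlp6 (log2 change 0.66 ± 0.16, adjusted p = 0.00806) and in nlp6nlp7 (log2 change 0.55 ± 0.16, adjusted p = 0.0459), and in nlp7 the change was 0.47 (adjusted p = 0.117). XTH18 lost its call in the nlp6 response without nlp6 replicate 1 at 35 min (log2 change 0.54, adjusted p = 0.0597). XTH18 lost its call in the nlp6nlp7 response without nlp6nlp7 replicate 1, 2 or 3 at 0 min or nlp6nlp7 replicate 2 or 3 at 35 min and after quantile normalization, with a pseudocount of 3, with the replicate number as a block or in a fit of the compared arrays alone (log2 changes 0.43 to 0.60, adjusted p = 0.0527 to 0.23).

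XTH19 began at 2040, 2072 and 2040 in Col-0, 2007, 1845 and 2204 in nlp6, 1656, 1950 and 1978 in nlp7 and 2130, 2137 and 2288 in nlp6nlp7. After 35 min it stood at 1211, 1339 and 1295 in Col-0, 1457, 1161 and 1618 in nlp6, 1421, 1306 and 1395 in nlp7 and 1628, 1578 and 1623 in nlp6nlp7. All arrays at 35 min, 1161 to 1628, lay below all arrays at 0 min of every genotype, 1656 to 2288. XTH19 fell in Col-0 (1.59-fold, log2 change -0.67 ± 0.10, adjusted p = 0.000103), in nlp6 (log2 change -0.52 ± 0.10, adjusted p = 0.00164), in nlp7 (log2 change -0.43 ± 0.10, adjusted p = 0.0146) and in nlp6nlp7 (log2 change -0.43 ± 0.10, adjusted p = 0.0127). XTH19 lost its call in the nlp6 response in a fit of the compared arrays alone (log2 change -0.52, adjusted p = 0.125). XTH19 lost its call in the nlp7 response without nlp7 replicate 2 or 3 at 0 min or nlp7 replicate 2 at 35 min and after median centring or in a fit of the compared arrays alone (log2 changes -0.38 to -0.43, adjusted p = 0.0662 to 0.183). XTH19 lost its call in the nlp6nlp7 response without nlp6nlp7 replicate 3 at 0 min or nlp6nlp7 replicate 2 at 35 min and after median centring (log2 changes -0.34 to -0.42, adjusted p = 0.0526 to 0.12). Cross-hybridisation between probe sets of such close relatives was not tested.

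XTH20 (AT5G48070), of the same group as XTH18 and XTH19, rose in every genotype. Its intensities at 0 min were 319, 282 and 257 in Col-0, 260, 264 and 340 in nlp6, 292, 284 and 324 in nlp7 and 355, 349 and 349 in nlp6nlp7. The values at 35 min were 583, 692 and 564 in Col-0, 568, 604 and 471 in nlp6, 454, 467 and 509 in nlp7 and 486, 595 and 548 in nlp6nlp7. No array at 35 min (lowest 454) reached down to the arrays at 0 min (highest 355). The rise was 2.05-fold in Col-0 (log2 change 1.03 ± 0.12, adjusted p = 2.3e-06), 1.83-fold in nlp6, 1.54-fold in nlp7 and 1.5-fold in nlp6nlp7 (adjusted p = 1.99e-05, 0.00166 and 0.00274), and each of these calls held under all alternatives run. The response in nlp7 and in nlp6nlp7 differed from that in Col-0 by -0.41 and -0.44 (adjusted p = 0.717 and 0.424), so these differences did not pass the threshold.

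XTH33 (AT1G10550), an XTH known to be held at the plasma membrane, had the largest fall among the 49 members in Col-0, nlp6, nlp7 and nlp6nlp7. At 0 min it stood at 198, 227 and 222 in Col-0, 209, 280 and 311 in nlp6, 128, 146 and 214 in nlp7 and 199, 182 and 218 in nlp6nlp7. At 35 min it stood at 65, 90 and 112 in Col-0, 97, 89 and 103 in nlp6, 68, 67 and 105 in nlp7 and 87, 86 and 94 in nlp6nlp7. Within each genotype the arrays of the 2 times did not overlap. XTH33 fell 2.13-fold in Col-0 (log2 change -1.09 ± 0.17, adjusted p = 0.000148), 2.37-fold in nlp6 (log2 change -1.24 ± 0.17, adjusted p = 3.24e-05), 1.77-fold in nlp7 (log2 change -0.82 ± 0.17, adjusted p = 0.00489) and 1.96-fold in nlp6nlp7 (log2 change -0.97 ± 0.17, adjusted p = 0.00102). XTH33 lost its call in the nlp7 response in a fit of the compared arrays alone (log2 change -0.82, adjusted p = 0.166). With a pseudocount of 103 the nlp7 value shrank to -0.53, and the call held.

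XTH16 (AT3G23730) fell in Col-0 and nlp6. Its arrays at 0 min read 754, 716 and 721 in Col-0, 751, 796 and 838 in nlp6, 538, 802 and 773 in nlp7 and 792, 775 and 777 in nlp6nlp7. Those at 35 min read 425, 337 and 437 in Col-0, 438, 466 and 585 in nlp6, 409, 582 and 526 in nlp7 and 509, 553 and 678 in nlp6nlp7. The times did not overlap in Col-0, nlp6 and nlp6nlp7 but did in nlp7, where replicate 1 at 0 min, 538, lay below replicate 2 at 35 min, 582. The fall of XTH16 was called in Col-0 (1.79-fold, log2 change -0.84 ± 0.15, adjusted p = 0.000607) and in nlp6 (log2 change -0.66 ± 0.15, adjusted p = 0.00579), while the changes in nlp7 and nlp6nlp7 were -0.45 and -0.42 (adjusted p = 0.111 and 0.136). The response differences of nlp7 and nlp6nlp7 against Col-0 were 0.39 and 0.41 (adjusted p = 0.866 and 0.657).

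XTH21 (AT2G18800), known from mutants as a gene of primary root growth, was high in nlp6nlp7. Its values at 0 min were 287, 237 and 183 in Col-0, 250, 287 and 302 in nlp6, 205, 290 and 298 in nlp7 and 387, 398 and 332 in nlp6nlp7. The 35 min arrays gave 319, 242 and 356 in Col-0, 245, 268 and 463 in nlp6, 332, 343 and 340 in nlp7 and 582, 562 and 527 in nlp6nlp7. At both times the 3 nlp6nlp7 arrays lay above the 9 arrays of the other genotypes. It was higher in nlp6nlp7 than in Col-0 at 35 min (1.78-fold, log2 change 0.83 ± 0.19, adjusted p = 0.0106), and at 0 min the difference was 0.62 (adjusted p = 0.0585). XTH21 lost its call in nlp6nlp7 at 35 min without Col-0 replicate 2 at 35 min (log2 change 0.68, adjusted p = 0.0771).

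The other 3 XTH members passed the threshold in none of the 13 comparisons. XTH26 (AT4G28850), known for activity at root hairs, ranged from 76 to 393 over the arrays, with 76, 94 and 145 in nlp7 at 35 min against 165, 153 and 256 in Col-0. Those nlp7 arrays lay below all 9 others at 35 min, with a difference from Col-0 of -0.73 (adjusted p = 0.096). XTH32, a member of the branch with xyloglucan hydrolases, lay at 156 to 360, and XTH29 at 7 to 54.

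**Figure D2:**
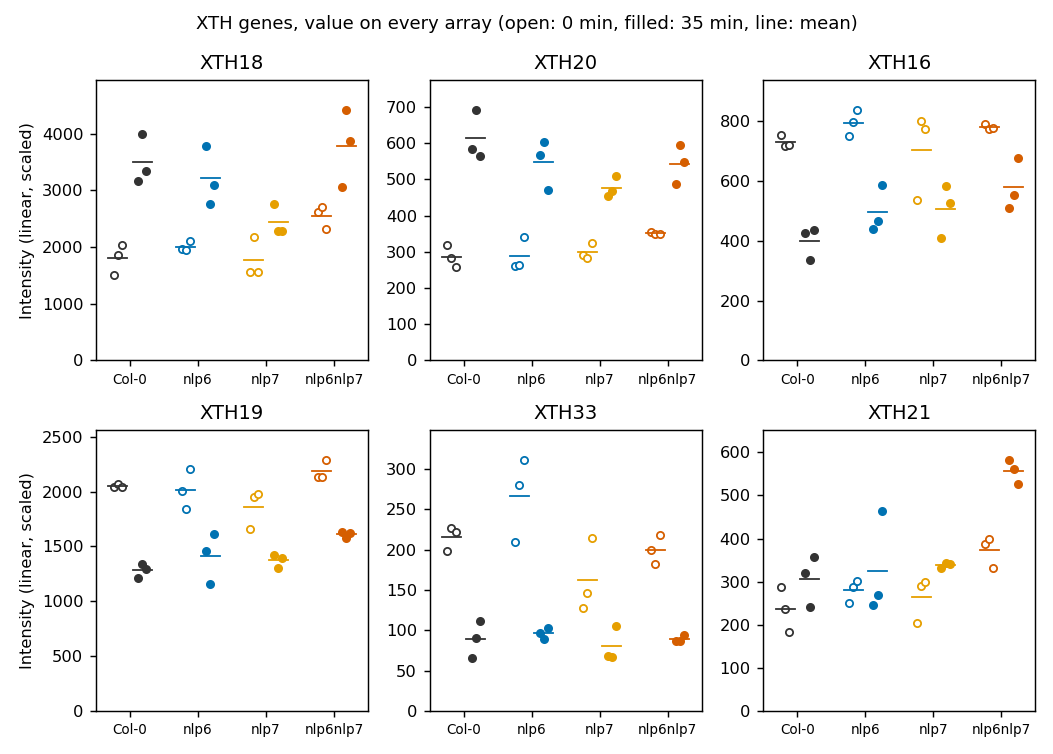
Intensity (linear axis from 0) of 6 XTH genes on each of the 24 arrays, by genotype, with 1 point per array (open at 0 min, filled at 35 min) and a line at each mean of 3 arrays. XTH18 and XTH20 lie higher at 35 min, XTH16, XTH19 and XTH33 lie lower, and XTH21 lies highest in nlp6nlp7.

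Among the 18 expansins, 2 of 3 expansin-like A genes rose in Col-0, and EXPA15, EXPA18 and EXPB1 fell. EXLA3 (AT3G45960) and EXLA1 (AT3G45970) are neighbours in gene order with 0 protein-coding genes between them. Expansin-like A proteins have the domains of expansins, but wall loosening has not been shown for them. The intensities of EXLA3 at 0 min were 98, 59 and 86 in Col-0, 97, 90 and 73 in nlp6, 65, 85 and 79 in nlp7 and 65, 96 and 96 in nlp6nlp7. At 35 min they had reached 295, 432 and 262 in Col-0, 263, 136 and 160 in nlp6, 196, 114 and 192 in nlp7 and 120, 129 and 128 in nlp6nlp7. The arrays at 35 min lay above those at 0 min in each genotype, and the 3 Col-0 arrays were the highest group at 35 min, overlapping nlp6 by 1 array. EXLA3 rose 3.30-fold in Col-0 (log2 change 1.72 ± 0.22, adjusted p = 1.11e-05), the largest rise of the 49 members, and in nlp6 and nlp7 the changes were 0.87 and 0.89 (adjusted p = 0.0115 and 0.0175). EXLA3 lost its call in the nlp6 response without nlp6 replicate 3 at 0 min or nlp6 replicate 1 at 35 min and in a fit of the compared arrays alone (log2 changes 0.63 to 0.87, adjusted p = 0.0586 to 0.0905). EXLA3 lost its call in the nlp7 response without nlp7 replicate 1 at 0 min, nlp7 replicate 1 or 3 at 35 min or nlp7 replicate 1 at both times and in a fit of the compared arrays alone (log2 changes 0.69 to 0.89, adjusted p = 0.0805 to 0.247). With a pseudocount of 103 the nlp7 value was 0.58, and it stayed called.

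The change of EXLA3 in nlp6nlp7 was 0.45 (adjusted p = 0.33). At 35 min EXLA3 was 2.30-fold lower in nlp6nlp7 than in Col-0 (log2 change -1.20 ± 0.22, adjusted p = 0.00137), and all 3 arrays of nlp6nlp7, 120 to 129, lay below the Col-0 arrays. In nlp7 the difference at that time was -0.88 (adjusted p = 0.0544). The response differences against Col-0 were -0.85 ± 0.31 in nlp6, -0.83 in nlp7 and -1.27 ± 0.31 in nlp6nlp7 (adjusted p = 0.963, 0.626 and 0.0854), none past the threshold. The difference for nlp6nlp7 passed with trended and robust variances (adjusted p = 0.0437) and with a pseudocount of 103 (-0.94, adjusted p = 0.0453). It did not pass after median centring or quantile normalization. This difference was singled out, as no other uncalled comparison of a single gene was followed through the alternatives. Its passes therefore carry no weight by themselves.

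EXLA1 at 0 min read 951, 1109 and 929 in Col-0, 936, 938 and 1061 in nlp6, 918, 1134 and 908 in nlp7 and 1100, 1152 and 1154 in nlp6nlp7. At 35 min it read 1920, 2336 and 1830 in Col-0, 2114, 1452 and 1530 in nlp6, 1722, 1798 and 1912 in nlp7 and 1466, 1870 and 1755 in nlp6nlp7. Every array at 35 min, from 1452 up, exceeded every array at 0 min, up to 1154. EXLA1 rose in Col-0 (2.0-fold, log2 change 1.0 ± 0.13, adjusted p = 2.16e-05), nlp6 (1.70-fold, adjusted p = 0.000504), nlp7 (1.82-fold, adjusted p = 0.000246) and nlp6nlp7 (1.48-fold, adjusted p = 0.0141). The response in nlp6nlp7 differed from that in Col-0 by -0.44 ± 0.19 (adjusted p = 0.543). EXLA1 lost its call in the nlp6nlp7 response without nlp6nlp7 replicate 1 at 0 min or nlp6nlp7 replicate 2 or 3 at 35 min (log2 changes 0.49 to 0.54, adjusted p = 0.0554 to 0.0831). The third expansin-like A gene, EXLA2, was dim, at 11 to 91, and was called nowhere.

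EXPA15 (AT2G03090), an alpha-expansin, fell in all 4 genotypes. Its values at 0 min were 1663, 1659 and 1797 in Col-0, 1571, 1766 and 1840 in nlp6, 1335, 1387 and 1693 in nlp7 and 1620, 1695 and 1773 in nlp6nlp7. By 35 min they were 1152, 1020 and 1109 in Col-0, 837, 937 and 840 in nlp6, 1025, 1108 and 1247 in nlp7 and 1330, 1182 and 1202 in nlp6nlp7. Within each genotype no array at 35 min reached those at 0 min. The fall was 1.55-fold in Col-0 (log2 change -0.63 ± 0.10, adjusted p = 0.000141), 1.95-fold in nlp6 (log2 change -0.96 ± 0.10, adjusted p = 6.5e-07), 1.3-fold in nlp7 (log2 change -0.37 ± 0.10, adjusted p = 0.0304) and 1.36-fold in nlp6nlp7 (log2 change -0.45 ± 0.10, adjusted p = 0.00798). EXPA15 lost its call in the nlp7 response without nlp7 replicate 3 at 0 min, nlp7 replicate 1 or 2 at 35 min or nlp7 replicate 1 at both times and after median centring or in a fit of the compared arrays alone (log2 changes -0.27 to -0.38, adjusted p = 0.0866 to 0.363). EXPA15 lost its call in the nlp6nlp7 response after median centring (log2 change -0.35, adjusted p = 0.0578).

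EXPA18 (AT1G62980) and EXPA7 (AT1G12560) are the expansins known as specific to root hair cells. EXPA18 at 0 min lay at 602, 698 and 690 in Col-0, 784, 730 and 852 in nlp6, 529, 651 and 752 in nlp7 and 808, 1007 and 832 in nlp6nlp7. Its arrays at 35 min lay at 369, 551 and 459 in Col-0, 537, 553 and 733 in nlp6, 385, 524 and 571 in nlp7 and 874, 781 and 746 in nlp6nlp7. At 35 min all 3 nlp6nlp7 arrays, from 746 up, exceeded the 9 arrays of the other genotypes, of which the highest was 733. EXPA18 fell in Col-0 (1.43-fold, log2 change -0.52 ± 0.16, adjusted p = 0.0481) and was higher in nlp6nlp7 than in Col-0 at 35 min (1.72-fold, log2 change 0.78 ± 0.16, adjusted p = 0.00479). EXPA18 lost its call in the Col-0 response without Col-0 replicate 1, 2 or 3 at 0 min or Col-0 replicate 1 or 3 at 35 min and after quantile normalization, after median centring, with a pseudocount of 3 or in a fit of the compared arrays alone (log2 changes -0.38 to -0.59, adjusted p = 0.0578 to 0.244). EXPA7, at 361 to 649 over all arrays, had a log2 difference of 0.03 between times in Col-0 and of -0.08 between nlp6nlp7 and Col-0 at 35 min, neither of which passed the threshold.

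EXPB1 (AT2G20750), a beta-expansin, had the largest excess of any member in nlp6nlp7. Its arrays at 0 min gave 413, 398 and 370 in Col-0, 383, 356 and 444 in nlp6, 334, 360 and 479 in nlp7 and 718, 762 and 703 in nlp6nlp7. At 35 min they gave 287, 191 and 219 in Col-0, 185, 209 and 267 in nlp6, 232, 328 and 314 in nlp7 and 659, 584 and 560 in nlp6nlp7. The nlp6nlp7 arrays lay above all arrays of the other 3 genotypes at both times, and within each genotype the arrays at 35 min lay below those at 0 min. EXPB1 was 1.80-fold higher in nlp6nlp7 than in Col-0 at 0 min (log2 change 0.85 ± 0.16, adjusted p = 0.00194) and 2.45-fold higher at 35 min (log2 change 1.29 ± 0.16, adjusted p = 1.47e-05). At 35 min the single mutants differed from Col-0 by -0.07 (nlp6) and 0.30 (nlp7), and at 0 min nlp7 differed by -0.02, and neither single mutant was called at either time.

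EXPB1 fell in Col-0 (1.64-fold, log2 change -0.72 ± 0.16, adjusted p = 0.00362) and nlp6 (1.72-fold, log2 change -0.78 ± 0.16, adjusted p = 0.00177), and its changes in nlp7 and nlp6nlp7 were -0.39 and -0.27 (adjusted p = 0.216 and 0.455). The response difference of nlp6nlp7 was 0.45 (adjusted p = 0.627). Whether the double mutant departs from the sum of the single mutants was tested after these values were seen, with 2.05% of all probe sets called at 0 min and 1.66% at 35 min. Of the 49 members, 2 were called at 0 min (EXPB1 and TBL34, higher) and 2 at 35 min (EXPB1 higher and EXPA20 lower). At an unadjusted p under 0.05 there were 11 and 16. The share of all probe sets at that threshold is not given, and the shares above are of adjusted calls. The counts of 11 and 16 therefore show no excess of members. For EXPB1 the departure was 0.87 ± 0.22 at 0 min (adjusted p = 0.045) and 1.06 ± 0.22 at 35 min (adjusted p = 0.0129), the second of which held in all 16 alternatives run. EXPB1 lost its call in the departure at 0 min without Col-0 replicate 1, 2 or 3 at 0 min, nlp6 replicate 1 or 2 at 0 min, nlp7 replicate 1 or 2 at 0 min or nlp6nlp7 replicate 1, 2 or 3 at 0 min and after median centring or with a pseudocount of 3 (log2 changes 0.77 to 0.91, adjusted p = 0.0584 to 0.118).

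EXPB3 (AT4G28250), the brightest beta-expansin, was also higher in nlp6nlp7. At 0 min its arrays stood at 1004, 1122 and 1520 in Col-0, 942, 1357 and 1242 in nlp6, 954, 1298 and 1365 in nlp7 and 1723, 1952 and 1895 in nlp6nlp7. At 35 min they stood at 1258, 1208 and 1347 in Col-0, 1098, 1161 and 1113 in nlp6, 1143, 1240 and 1378 in nlp7 and 1676, 1722 and 1873 in nlp6nlp7. The double mutant lay above all arrays of the other genotypes at both times. The difference from Col-0 was 1.54-fold at 0 min (log2 change 0.62 ± 0.15, adjusted p = 0.0163), and at 35 min it was 0.46 (adjusted p = 0.0814). EXPB3 lost its call in nlp6nlp7 at 0 min without Col-0 replicate 1 or 2 at 0 min or nlp6nlp7 replicate 2 or 3 at 0 min and in a fit of the compared arrays alone (log2 changes 0.50 to 0.62, adjusted p = 0.0588 to 0.0925). The other 2 beta-expansins, EXPB2 at 9 to 115 and EXPB5 at 20 to 73, were dim and called nowhere. All 4 EXPB genes had a positive difference in nlp6nlp7 at 0 min (median 0.57, and all 4 positive after median centring and quantile normalization too). At 35 min 3 were positive and 1 was negative, with or without these scalings. A shift of the EXPB genes as a set was not tested.

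EXLB1 (AT4G17030), the single expansin-like B gene, was lower in nlp6nlp7. It read 2743, 2381 and 2429 in Col-0, 2773, 2357 and 2048 in nlp6, 1849, 1946 and 2001 in nlp7 and 1583, 1326 and 1480 in nlp6nlp7 at 0 min. It read 1845, 2087 and 2017 in Col-0, 2466, 2164 and 1742 in nlp6, 1864, 1994 and 1792 in nlp7 and 1609, 1263 and 1396 in nlp6nlp7 at 35 min. At 0 min the groups were ordered without overlap, with Col-0 and nlp6 above nlp7 and nlp7 above nlp6nlp7, and at 35 min nlp6nlp7 lay below all others. EXLB1 was 1.71-fold lower in nlp6nlp7 than in Col-0 at 0 min (log2 change -0.77 ± 0.13, adjusted p = 0.000607) and 1.39-fold lower at 35 min (log2 change -0.48 ± 0.13, adjusted p = 0.0266), while nlp7 differed by -0.38 at 0 min (adjusted p = 0.363). EXLB1 lost its call in nlp6nlp7 at 35 min without Col-0 replicate 2 or 3 at 35 min or nlp6nlp7 replicate 2 or 3 at 35 min and in a fit of the compared arrays alone (log2 changes -0.40 to -0.48, adjusted p = 0.0705 to 0.139). Its change with time in Col-0 was -0.34 (adjusted p = 0.109).

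Of the remaining alpha-expansins, EXPA8 (AT2G40610), at 42 to 106 over all arrays, was called once, with 106, 94 and 79 at 0 min and 55, 57 and 60 at 35 min in nlp7 (log2 change -0.51 ± 0.14, adjusted p = 0.0442). EXPA8 lost its call in the nlp7 response without nlp7 replicate 1 or 2 at 0 min, nlp7 replicate 1, 2 or 3 at 35 min or nlp7 replicate 1 at both times and after quantile normalization, after median centring, with a pseudocount of 3, with trended and robust variances, with the replicate number as a block or in a fit of the compared arrays alone (log2 changes -0.41 to -0.66, adjusted p = 0.0529 to 0.342). With a pseudocount of 103 its value was -0.29, and the call held. EXPA20 (AT4G38210) was called in none of the 13 comparisons, but in the added test it departed from the sum of the single mutants at 35 min (-0.78 ± 0.18, adjusted p = 0.0304), with 201, 174 and 220 in Col-0, 237, 257 and 273 in nlp6, 333, 246 and 260 in nlp7 and 225, 185 and 182 in nlp6nlp7. EXPA20 lost its call in the departure at 35 min without Col-0 replicate 1 or 2 at 35 min, nlp6 replicate 2 or 3 at 35 min, nlp7 replicate 1 at 35 min or nlp6nlp7 replicate 2 or 3 at 35 min (log2 changes -0.66 to -0.79, adjusted p = 0.0648 to 0.0984). EXPA4 and EXPA9 were bright, at 2142 to 2933 and 653 to 1065, and EXPA16, EXPA21 and EXPA24 were dim, with no array above 50, and none of these 5 was called.

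**Figure D3:**
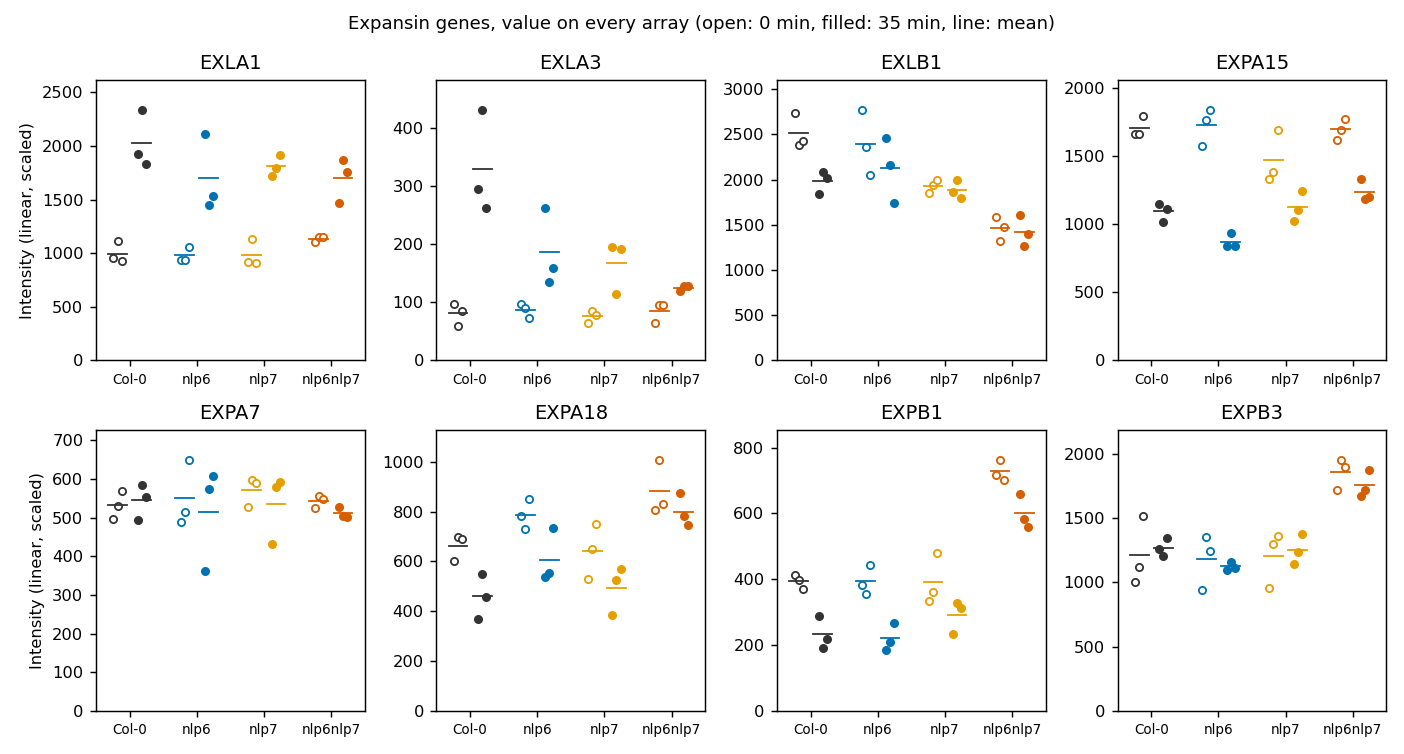
Intensity (linear axis from 0) of 8 expansin genes on each of the 24 arrays, by genotype, with 1 point per array (open at 0 min, filled at 35 min) and a line at each mean of 3 arrays. EXLA1 and EXLA3 lie higher at 35 min, EXPA15 lies lower, EXPB1 and EXPB3 lie highest and EXLB1 lowest in nlp6nlp7, and EXPA7 stays between 361 and 649.

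Of 22 TBL genes, TBL16 rose and TBL38 fell in Col-0, and TBL16 (AT5G20680) was the member whose response differed in nlp6nlp7. At 0 min its arrays read 352, 343 and 382 in Col-0, 406, 394 and 396 in nlp6, 356, 379 and 363 in nlp7 and 376, 436 and 398 in nlp6nlp7. At 35 min they read 565, 580 and 578 in Col-0, 602, 479 and 576 in nlp6, 407, 382 and 455 in nlp7 and 396, 387 and 427 in nlp6nlp7. At 0 min all 12 arrays lay between 343 and 436, and at 35 min every Col-0 and nlp6 array, from 479 up, exceeded every nlp7 and nlp6nlp7 array, up to 455. TBL16 rose in Col-0 (1.56-fold, log2 change 0.64 ± 0.09, adjusted p = 2.66e-05) and nlp6 (1.36-fold, log2 change 0.44 ± 0.09, adjusted p = 0.00173), with values of 0.17 in nlp7 and 0.00 in nlp6nlp7 (adjusted p = 0.431 and 1). TBL16 lost its call in the nlp6 response in a fit of the compared arrays alone (log2 change 0.44, adjusted p = 0.101).

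TBL16 was the only member called in a response difference, where 0.00881%, 0.264% and 0.528% of all probe sets were called for nlp6, nlp7 and nlp6nlp7. Its response in nlp6nlp7 differed from that in Col-0 by -0.64 ± 0.12 (adjusted p = 0.0163), in nlp7 by -0.48 (adjusted p = 0.189) and in nlp6 by -0.20 (adjusted p = 0.986). TBL16 lost its call in the response difference of nlp6nlp7 without Col-0 replicate 1 or 2 at 0 min, nlp6nlp7 replicate 2 at 0 min, Col-0 replicate 2 at 35 min or nlp6nlp7 replicate 1 or 2 at 35 min and after median centring (log2 changes -0.59 to -0.63, adjusted p = 0.0509 to 0.0718). At an unadjusted p under 0.05, the members numbered 3, 8 and 5 for the response differences of nlp6, nlp7 and nlp6nlp7. The percentages above are of adjusted calls. The share of all probe sets at the unadjusted threshold is not given, so these unadjusted counts show no excess of members. At 35 min TBL16 was lower than in Col-0 in nlp7 (log2 change -0.45 ± 0.09, adjusted p = 0.0111) and in nlp6nlp7 (log2 change -0.48 ± 0.09, adjusted p = 0.00129). TBL16 lost its call in nlp7 at 35 min without Col-0 replicate 2 at 35 min or nlp7 replicate 2 at 35 min and in a fit of the compared arrays alone (log2 changes -0.40 to -0.45, adjusted p = 0.0584 to 0.187).

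TBL38 (AT1G29050), reported as an esterase that removes acetyl groups from pectin in seed mucilage cells, was the brightest TBL probe set and fell in all 4 genotypes. Its values at 0 min were 2438, 2177 and 2169 in Col-0, 2333, 2163 and 2486 in nlp6, 1786, 1718 and 1764 in nlp7 and 2688, 2230 and 2720 in nlp6nlp7. At 35 min the values were 1433, 1458 and 1535 in Col-0, 1506, 1502 and 1551 in nlp6, 1441, 1400 and 1327 in nlp7 and 1844, 1526 and 1635 in nlp6nlp7. Within each genotype the 2 times did not overlap. TBL38 fell in Col-0 (1.52-fold, log2 change -0.61 ± 0.09, adjusted p = 6.44e-05), nlp6 (log2 change -0.60 ± 0.09, adjusted p = 6.83e-05), nlp7 (log2 change -0.33 ± 0.09, adjusted p = 0.0324) and nlp6nlp7 (log2 change -0.60 ± 0.09, adjusted p = 0.000138). TBL38 lost its call in the nlp7 response without nlp7 replicate 1, 2 or 3 at 0 min, nlp7 replicate 1, 2 or 3 at 35 min or nlp7 replicate 1 at both times and after median centring or in a fit of the compared arrays alone (log2 changes -0.29 to -0.36, adjusted p = 0.0504 to 0.223).

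TBL34 (AT2G38320), one of the xylan O-acetyltransferases of the family, was low in nlp7. At 0 min it stood at 289, 288 and 335 in Col-0, 245, 180 and 236 in nlp6, 162, 217 and 223 in nlp7 and 290, 275 and 308 in nlp6nlp7. At 35 min it stood at 344, 394 and 433 in Col-0, 292, 322 and 388 in nlp6, 207, 214 and 216 in nlp7 and 242, 254 and 357 in nlp6nlp7. The nlp7 arrays at 35 min, 207 to 216, lay below all Col-0 and nlp6 arrays, and at 0 min nlp6 and nlp7 both lay below Col-0. TBL34 was 1.74-fold lower in nlp7 than in Col-0 at 35 min (log2 change -0.80 ± 0.14, adjusted p = 0.00645) and rose in nlp6 (log2 change 0.55 ± 0.14, adjusted p = 0.0167), while the Col-0 response was 0.33 (adjusted p = 0.193). In nlp6nlp7 the difference from Col-0 was -0.06 at 0 min, and the double mutant departed from the sum of the single mutants at that time (log2 change 0.92 ± 0.20, adjusted p = 0.0199). TBL34 lost its call in the nlp6 response without nlp6 replicate 2 at 0 min or nlp6 replicate 3 at 35 min and in a fit of the compared arrays alone (log2 changes 0.43 to 0.55, adjusted p = 0.0907 to 0.118). TBL34 lost its call in nlp7 at 35 min in a fit of the compared arrays alone (log2 change -0.80, adjusted p = 0.0835). TBL34 lost its call in the departure at 0 min without Col-0 replicate 3 at 0 min, nlp6 replicate 2 at 0 min, nlp7 replicate 1 at 0 min or nlp6nlp7 replicate 3 at 0 min and after median centring (log2 changes 0.79 to 0.88, adjusted p = 0.0511 to 0.0629).

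In nlp6nlp7 at 0 min, 19 of 22 TBL genes had a positive difference from Col-0, with a median of 0.26 against 0.05 over all probe sets, and 19 stayed positive after centring (median 0.17) or quantile normalization (median 0.19). The calls at that time were 2 higher and 1 lower among TBL genes. Over all 49 members 4 were called higher and 2 lower (12.2%, background 6.41%, 3.92% higher and 2.5% lower), with 39 positive and a median of 0.19. At 35 min, 5 members were higher and 4 lower in nlp6nlp7 (18.4%, background 6.22%, 3.55% higher and 2.67% lower), and the TBL median was 0.10, with 16 of 22 positive. After median centring that median was 0.04 with 14 positive, and after quantile normalization 0.08 with 13 positive. These genes were measured on the same arrays, and the share of all probe sets with a positive difference is not given. Whether the TBL genes or the 49 members shifted as a set was not tested. The shoot marker LHCB4.1, a light-harvesting protein, differed by -0.88 in nlp6nlp7 at 35 min (adjusted p = 0.0873), and its part in these differences was not tested. In nlp6 no member was called at 0 or 35 min, where 0.0881% and 0.022% of all probe sets were called. In nlp7 none was called at 0 min (0.185% of all probe sets called), and 2 were lower at 35 min (1.25% of all probe sets called), both of them TBL genes. At an unadjusted p under 0.05 members numbered 3 and 4 in nlp6 (0 and 35 min) and 8 in nlp7 (0 min). The share of all probe sets at that unadjusted threshold is not given, so these counts show no excess by themselves.

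TBL37 (AT2G34070) was higher in nlp6nlp7 before nitrate. At 0 min its arrays were 683, 723 and 805 in Col-0, 705, 873 and 890 in nlp6, 793, 742 and 660 in nlp7 and 1009, 1014 and 1121 in nlp6nlp7. At 35 min they were 918, 958 and 864 in Col-0, 880, 816 and 838 in nlp6, 872, 733 and 799 in nlp7 and 1077, 1124 and 927 in nlp6nlp7. The 3 nlp6nlp7 arrays at 0 min, from 1009 up, exceeded all others at that time, and at 35 min nlp6nlp7 overlapped Col-0. The difference from Col-0 at 0 min was 1.41-fold (log2 change 0.49 ± 0.10, adjusted p = 0.00639), and at 35 min it was 0.18 (adjusted p = 0.406).

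TBL39 (AT2G42570) lay higher in nlp6nlp7 than in Col-0 at both times, and the difference was called only after nitrate. Its intensities at 0 min were 1173, 1247 and 1319 in Col-0, 1410, 1525 and 1408 in nlp6, 1210, 1268 and 1139 in nlp7 and 1564, 1527 and 1611 in nlp6nlp7. At 35 min its intensities were 1123, 998 and 1139 in Col-0, 920, 1272 and 1145 in nlp6, 1175, 1172 and 1222 in nlp7 and 1401, 1661 and 1331 in nlp6nlp7. At both times nlp6nlp7 lay above all arrays of the other genotypes. TBL39 was higher in nlp6nlp7 than in Col-0 at 35 min (1.34-fold, log2 change 0.42 ± 0.10, adjusted p = 0.0182) and fell in nlp6 (log2 change -0.38 ± 0.10, adjusted p = 0.02). TBL39 lost its call in the nlp6 response without nlp6 replicate 2 at 0 min or nlp6 replicate 1 at 35 min and after median centring or in a fit of the compared arrays alone (log2 changes -0.26 to -0.38, adjusted p = 0.0836 to 0.22). TBL39 lost its call in nlp6nlp7 at 35 min without Col-0 replicate 2 at 35 min or nlp6nlp7 replicate 2 at 35 min and in a fit of the compared arrays alone (log2 changes 0.33 to 0.42, adjusted p = 0.0969 to 0.119).

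TBL19 (AT5G15900) and TBL21 (AT5G15890) are neighbours with 0 protein-coding genes between them. TBL19 stood at 118, 91 and 106 in Col-0, 100, 122 and 145 in nlp6, 118, 93 and 108 in nlp7 and 140, 155 and 155 in nlp6nlp7 at 0 min. At 35 min TBL19 stood at 88, 100 and 87 in Col-0, 93, 119 and 134 in nlp6, 117, 87 and 134 in nlp7 and 179, 153 and 141 in nlp6nlp7. The nlp6nlp7 arrays were the highest at 35 min. TBL19 was 1.56-fold higher in nlp6nlp7 than in Col-0 at 35 min (log2 change 0.64 ± 0.14, adjusted p = 0.00717), and at 0 min the difference was 0.43 (adjusted p = 0.0766). TBL19 lost its call in nlp6nlp7 at 35 min without nlp6nlp7 replicate 1 at 35 min (log2 change 0.56, adjusted p = 0.0522). With a pseudocount of 103 the value at 35 min was 0.42, and it stayed called. TBL21, at 106 to 284 over all arrays, read 189, 182 and 156 in Col-0 and 250, 270 and 284 in nlp6nlp7 at 0 min (1.46-fold, log2 change 0.55 ± 0.16, adjusted p = 0.046), and its nlp6nlp7 arrays were also the highest at 35 min (log2 difference 0.42, adjusted p = 0.151). TBL21 lost its call in nlp6nlp7 at 0 min without Col-0 replicate 1, 2 or 3 at 0 min or nlp6nlp7 replicate 1, 2 or 3 at 0 min and after quantile normalization, after median centring, with a pseudocount of 3 or with the replicate number as a block (log2 changes 0.46 to 0.60, adjusted p = 0.0564 to 0.164).

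TBL45 (AT2G30010) was lower in nlp6nlp7. Its arrays read 276, 255 and 295 in Col-0, 285, 219 and 269 in nlp6, 192, 236 and 225 in nlp7 and 178, 194 and 204 in nlp6nlp7 at 0 min. The values were 235, 286 and 310 in Col-0, 286, 272 and 307 in nlp6, 286, 243 and 302 in nlp7 and 184, 235 and 188 in nlp6nlp7 at 35 min. At 0 min nlp6nlp7 (highest 204) lay below Col-0 (lowest 255), and at 35 min its highest array met the lowest of Col-0, 235 in both. TBL45 was lower in nlp6nlp7 at 0 min (1.38-fold, log2 change -0.47 ± 0.12, adjusted p = 0.0243) and at 35 min (1.33-fold, log2 change -0.41 ± 0.12, adjusted p = 0.0491). TBL45 lost its call in nlp6nlp7 at 0 min without Col-0 replicate 1 or 3 at 0 min or nlp6nlp7 replicate 1 or 2 at 0 min (log2 changes -0.42 to -0.47, adjusted p = 0.0667 to 0.1). TBL45 lost its call in nlp6nlp7 at 35 min without Col-0 replicate 2 or 3 at 35 min or nlp6nlp7 replicate 1 or 3 at 35 min and with a pseudocount of 3 or in a fit of the compared arrays alone (log2 changes -0.33 to -0.45, adjusted p = 0.0533 to 0.199).

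The other 14 TBL members were called nowhere. They include TBL28, TBL30, TBL32 and TBL35, known as xylan O-acetyltransferases, and TBL23, TBL25 and TBL26, known as mannan O-acetyltransferases. The neighbours TBL28 and TBL30 lay at 258 to 514 and 228 to 456, with differences of 0.40 and 0.38 in nlp6nlp7 at 0 min (adjusted p = 0.215 and 0.206). TBL32, the only member whose probe set shares probes with other transcripts, lay at 113 to 266 and TBL35 at 299 to 526. TBL36 was bright, at 1192 to 2206, and TBL41, at 211 to 583, had differences of 0.58 and 0.67 in nlp6nlp7 at 0 and 35 min (adjusted p = 0.108 and 0.0657). TBL15, TBL20, TBL42 and TBL43 were dim, with no array above 59.

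**Figure D4:**
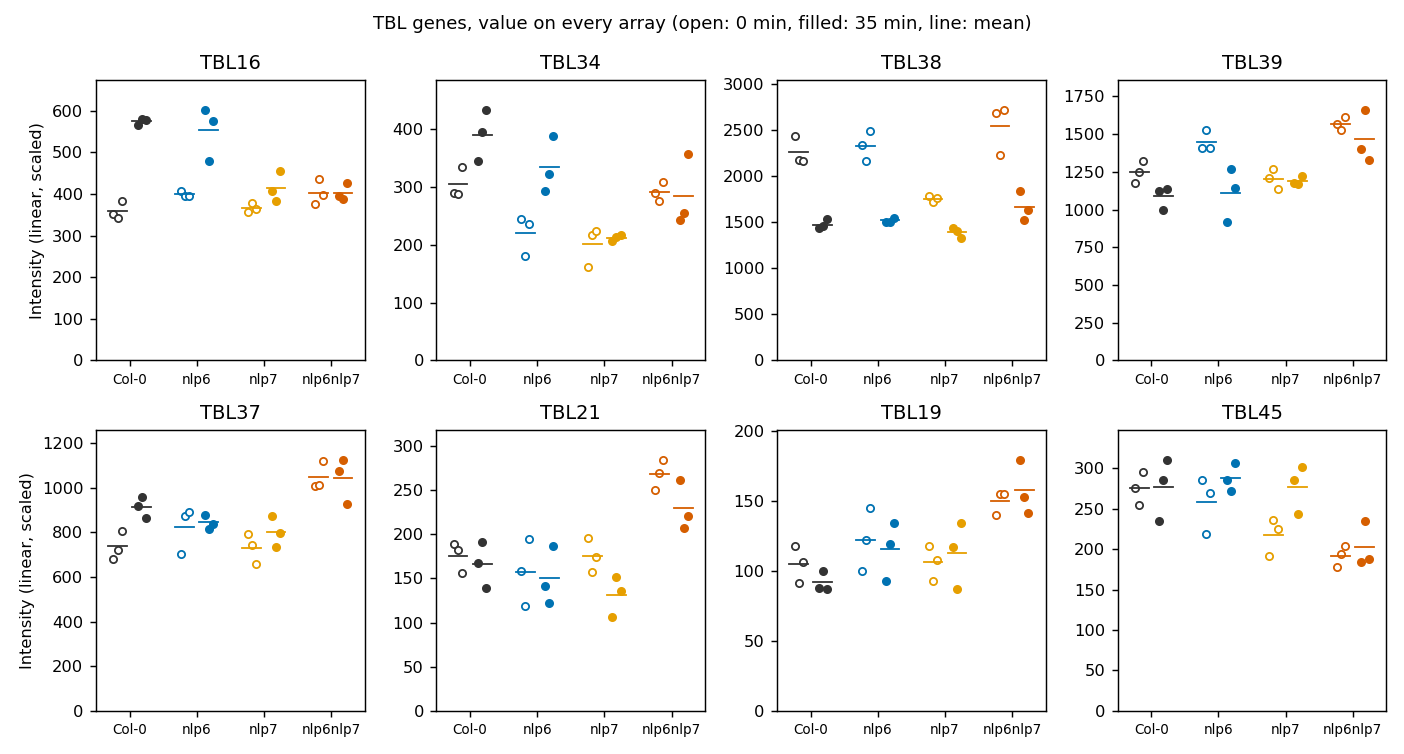
Intensity (linear axis from 0) of 8 TBL genes on each of the 24 arrays, by genotype, with 1 point per array (open at 0 min, filled at 35 min) and a line at each mean of 3 arrays. TBL16 at 35 min is higher in Col-0 and nlp6 than in nlp7 and nlp6nlp7, TBL38 is lower at 35 min in every genotype, and TBL45 is lowest in nlp6nlp7 at 0 min.

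Across genotypes the members that responded in Col-0 had the same sign in the mutants, and the median responses of the risers were smaller in all 3 mutants. For Col-0, nlp6, nlp7 and nlp6nlp7 in turn, the 5 members that rose in Col-0 had median responses of 1.0, 0.76, 0.63 and 0.55, and the response was smaller than in Col-0 for 5 of 5 in each mutant. The 7 that fell had medians of -0.67, -0.66, -0.39 and -0.43 in the same order, smaller in size than in Col-0 for 4 of 7 in nlp6 and 7 of 7 in nlp7 and nlp6nlp7. These members were chosen on the Col-0 arrays, which favours larger values there. For members chosen on the nlp6 arrays instead, 6 risers had medians of 0.98, 0.71, 0.55 and 0.50 in that order, and the response was smaller than in Col-0 for 5 of 6 in nlp6, 6 of 6 in nlp7 and 6 of 6 in nlp6nlp7. The 7 fallers so chosen had medians of -0.67, -0.66, -0.39 and -0.43, with 3 of 7 smaller in size than in Col-0 in nlp6 and 7 of 7 in both nlp7 and nlp6nlp7. Apart from TBL34 among the risers and TBL39 among the fallers, the members chosen on nlp6 were also chosen on Col-0. The choice on nlp6 is therefore nearly the same list and gives no separate support. All these comparisons share the Col-0 arrays, and the difference in size between genotypes was not tested over the members. Over all probe sets, 10.2% were called in the Col-0 response, 10.3% in nlp6, 5.12% in nlp7 and 5.41% in nlp6nlp7. The same counts of smaller responses were not made over all probe sets, so the pattern is not shown to be particular to these members. Of single members, TBL16 in nlp6nlp7 was the one whose response difference passed the threshold.

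**Figure D5:**
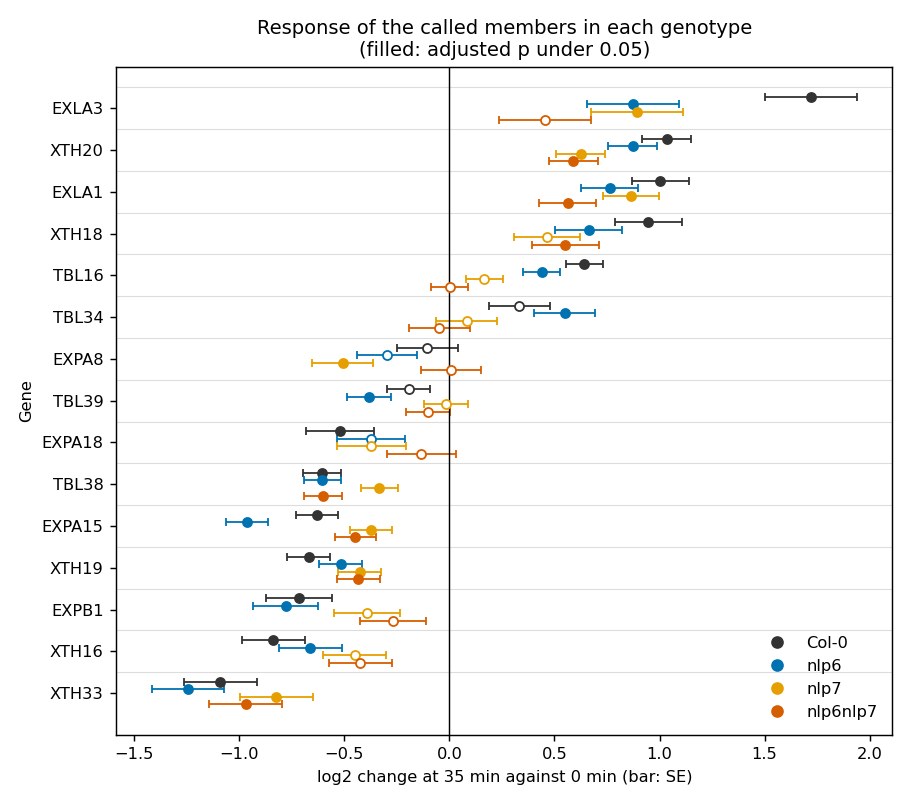
Log2 change from 0 to 35 min, with its standard error, of the members called in at least 1 response, in each of the 4 genotypes (limma, 3 arrays per group and time). Filled points passed an adjusted p under 0.05 and open points did not. EXLA3, XTH20, EXLA1 and XTH18 lie right of 0 and XTH33 and XTH16 left of it in every genotype, with TBL16 at 0.64 in Col-0 and 0.00 in nlp6nlp7 and EXLA3 at 1.72 in Col-0 and 0.45 in nlp6nlp7.

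Other genes of wall synthesis were read beside these families. Of 10 measured genes of cellulose and hemicellulose synthesis, 2 rose and 2 fell in Col-0 (40%, against 10.2% of all probe sets, 4.65% higher and 5.5% lower). CSLA03 (AT1G23480), of the family of mannan synthases, was at 401, 379 and 352 in Col-0, 317, 287 and 377 in nlp6, 389, 574 and 415 in nlp7 and 937, 931 and 909 in nlp6nlp7 at 0 min. At 35 min it was at 1264, 1337 and 1009 in Col-0, 1087, 682 and 733 in nlp6, 828, 740 and 749 in nlp7 and 1472, 1395 and 1416 in nlp6nlp7. It was higher at 35 min in every genotype without overlap, and at 0 min nlp6nlp7 stood above the other 3 genotypes. CSLA03 rose 3.03-fold in Col-0 (log2 change 1.60 ± 0.15, adjusted p = 2.76e-07) and was 2.36-fold higher in nlp6nlp7 than in Col-0 before nitrate (log2 change 1.24 ± 0.15, adjusted p = 4.14e-05). Its response in nlp6nlp7 differed from the Col-0 response by -0.99 ± 0.22 (adjusted p = 0.0448), and at 35 min the groups of nlp6nlp7 and Col-0 differed by 0.25 (adjusted p = 0.45). The departure from the sum of the single mutants was 1.19 at 0 min and 1.40 at 35 min (adjusted p = 0.0048 and 0.00135), and both held in the 16 alternatives run.

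CSLA03 lost its call in the nlp7 response without nlp7 replicate 1 at both times and in a fit of the compared arrays alone (log2 changes 0.58 to 0.74, adjusted p = 0.0998 to 0.12). CSLA03 lost its call in the nlp6nlp7 response without nlp6nlp7 replicate 1, 2 or 3 at 0 min or nlp6nlp7 replicate 1, 2 or 3 at 35 min (log2 changes 0.59 to 0.63, adjusted p = 0.0561 to 0.074). CSLA03 lost its call in the response difference of nlp6nlp7 without Col-0 replicate 1, 2 or 3 at 0 min, nlp6nlp7 replicate 1, 2 or 3 at 0 min, Col-0 replicate 1 or 2 at 35 min or nlp6nlp7 replicate 1, 2 or 3 at 35 min and after median centring, with a pseudocount of 3 or with the replicate number as a block (log2 changes -0.91 to -1.03, adjusted p = 0.0561 to 0.146). CSLD2 (AT5G16910), needed for normal root hairs, rose in Col-0 from 1093, 1248 and 1239 to 1970, 2150 and 1818 (log2 change 0.72 ± 0.15, adjusted p = 0.00311) and was lower in nlp6nlp7 at 35 min, at 1282, 1561 and 1279 (log2 change -0.52 ± 0.15, adjusted p = 0.0489). CSLC04 and CSLC12, which make the glucan backbone of xyloglucan, the substrate of XTH enzymes, fell in Col-0 (log2 change -0.45 ± 0.11, adjusted p = 0.0105 for CSLC04 and log2 change -0.54 ± 0.13, adjusted p = 0.00903 for CSLC12). Of 2 pectin genes, GAUT15, of a galacturonosyltransferase family, rose in Col-0 from 177, 154 and 144 to 231, 361 and 212 (log2 change 0.64 ± 0.17, adjusted p = 0.0147) and was higher in nlp6nlp7 at 0 min, at 274, 239 and 231 (log2 change 0.57 ± 0.17, adjusted p = 0.0462). PME61 was called nowhere. Among these genes alternatives were run for CSLA03 alone.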

How the data were processed

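Arabidopsis thaliana root RNA was read on 24 Affymetrix ATH1 arrays, with 3 biological replicates in each of 8 groups. The deposited values are linear intensities per probe set, whole numbers from 1 to 36178 that the authors had scaled per array. Which software summarised the probes is not given in the sources used. There is no read depth on an array, and precision rests on the number of arrays. Apart from 62 controls, all 22714 probe sets were tested, without a filter on dim ones. The platform's probe table, with symbols updated through the TAIR10.1 gene table, names 1 gene for 13490 probe sets, several for 503 and none for 8721.

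On log2(intensity + 26), where 26 is the 20th percentile of all values, limma 3.58.1 (R 4.3.3) fitted the 8 group means to the 24 arrays (16 residual degrees of freedom). It gave 13 two-sided contrasts: 4 responses, 3 response differences from Col-0 and 6 comparisons of a mutant with Col-0, which share arrays. Benjamini-Hochberg adjustment ran over the 22714 probe sets, and an adjusted p under 0.05 is a call. The departure of nlp6nlp7 from the sum of the single mutants was added after the data were seen. The steps were tested on simulated data.

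Members and lists were chosen with earlier results of these data known. Of 22 members called in at least 1 contrast, the 20 with the smallest adjusted p are described with every array, and the other 2, EXPA8 and TBL21, by their range and the arrays of the comparison that called them. Other wall genes are named where called in the Col-0 response or in nlp6nlp7 against Col-0. A root hair list had no measured gene, and PRP39, the only match of the wall protein list, is a pre-mRNA processing factor and was set aside. Deviations from the group means of arrays with equal replicate number had a median r of 0.0109 over 84 pairs (-0.177 to 0.469), and of 0.102 over the 12 pairs of the same genotype (-0.00837 to 0.469). Since not every pair correlated, and no label says that a number marks a shared culture, no block was used. Alternatives were quantile normalization, median centring, pseudocounts of 3 and 103, leaving out the dimmest 25%, trended and robust variances, a replicate block, only the arrays compared, and each array left out. Python 3.11.15 with pandas 2.3.3, numpy 2.4.6, scipy 1.17.1 and matplotlib 3.10.9 made tables and plots.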

Additional observations from a re-analysis of the deposited data

Results flagged for a closer look

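The response of 2 genes differed between genotypes by the test of the difference itself. For TBL16 the response in nlp6nlp7 minus that in Col-0 was -0.64 on the log2 scale, with 0.64 in Col-0 and 0.00 in nlp6nlp7. For CSLA03 it was -0.99, with 1.60 in Col-0 and 0.61 in nlp6nlp7, where the gene began 1.24 higher at 0 min. Neither call held under all alternatives. The call for TBL16 was lost in 7 of 20 and that for CSLA03 in 14 of 20, with median centring among the losses of both. Groups of 3 arrays are too small for the test of single outlying samples.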

How the results depend on the processing

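Of 56 calls of the 20 members described in full, 30 held under every alternative run for them, 26 were lost under at least 1 and 0 turned direction. The count of called members in the nlp6 response fell from 13 to 8 when only the compared arrays were fitted. In the nlp7 response it fell from 8 to 4 after median centring (3 higher, 1 lower), to 2 with only the compared arrays, and to 4 without nlp7 replicate 1 at both times, a choice made after seeing the data. In the nlp6nlp7 response median centring gave 3 higher and 2 lower, and quantile normalization 2 higher and 4 lower. The response difference of nlp6nlp7 went from 1 call to 0 after centring, and to 2 with a pseudocount of 103 or with trended and robust variances. In nlp7 against Col-0 at 35 min the 2 calls became 0 with only the compared arrays. Leaving out 1 array gave 11 to 12 calls in Col-0, 10 to 13 in nlp6, 4 to 6 in nlp7 (4 without replicate 1 or 2 at 35 min) and 4 to 8 in nlp6nlp7 (4 without replicate 2 at 35 min). It gave 0 to 1 in the response difference of nlp6nlp7, 3 to 4 in nlp6nlp7 at 0 min (3 without its replicate 2), 1 to 3 in nlp7 at 35 min (1 without Col-0 or nlp7 replicate 2) and 6 to 9 in nlp6nlp7 at 35 min. With 2 arrays in a group the smaller number of arrays is part of each such setting, and otherwise the cause was not tested. The counts under the alternatives are of members alone, without the share of all probe sets called in the same setting. They therefore do not tell a change in these members from a change in calls over the whole array. Samples share only a replicate number: 15 of 24 arrays correlated best with their own number. With the replicate number as a block, the Col-0, nlp6, nlp7 and nlp6nlp7 responses had 12, 13, 8 and 6 calls, nlp6nlp7 had 5 at 0 min and 12 at 35 min, and nlp7 at 35 min had 3. No member has another probe set, so that alternative gave no value. Dim probe sets limit what could be seen: 14 of the 49 members lay below the array median on all arrays.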
